A study of Mus musculus with 32 samples.

Results

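Total RNA from stomach and small intestine of mouse pups was compared between percc1-/- and wild-type animals at P10, P15 and P20, the postnatal days that lead from milk feeding to weaning. All 12 libraries of these 3 stages were taken, out of 32 in the series. They form 6 pairs, each with 1 library of either genotype. The 3 pairs called bottom stomach come from the lower part of the divided stomach at P10, P15 and P20. The 3 intestine pairs come from the lower part of the divided intestine at P10 and P20 and from its upper part at P15. The percc1-/- mice are homozygous for a 1512 bp deletion on chromosome 17 that left a loxP site behind. W4/129S6 embryonic stem cells carried the targeting, and both genotypes have a mixed 129SvEv and C57BL/6 background kept by sibling breeding. The deletion is present in every cell of the animal, so that no tissue alone lacks it. No region and stage has a second library of a genotype, and nothing in the labels ties a library to an animal. P-values therefore measure only how far the pairs differ from each other, part of which may be technical.

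Enteroendocrine cells are scattered hormone-secreting cells of the gut epithelium. They arise from dividing crypt or gland cells through the transcription factor Neurog3, and each subtype is known for its products, such as ghrelin in the stomach and the incretins in the intestine. Around weaning the epithelium of the mouse small intestine also changes: enterocytes that take up whole proteins from milk are replaced by enterocytes that digest sugars other than lactose, and Paneth cells and crypt turnover increase.

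The values are FPKM, fragment numbers adjusted for transcript length and for library size, and the files hold no counts. Confidence bounds deposited with the values gave a rough estimate of 10600000 to 21500000 fragments per library, lowest in percc1-/- bottom stomach at P15. Levels are given as deposited, and ratios and directions within a pair after rescaling of the libraries. Gastric marker genes summed to between 1260 and 1770 FPKM in the stomach libraries and to between 174 and 350 in the intestine libraries, and enterocyte genes to between 551 and 903 in intestine and to between 195 and 321 in stomach. Both organs thus carried their own markers at the higher level, with the other organ's markers present. One percc1-/- library, that of bottom stomach at P15, stood apart: records with a gene symbol held 60.2% of its FPKM, against 21.6% to 38.1% in the other 11 libraries. In the P10 bottom stomach pair 24 genes of exocrine pancreas summed to 709 FPKM in percc1-/- and to 237 in wild type. Skeletal muscle genes in the P15 bottom stomach pair summed to 40.6 and 161 FPKM. Of 20 tested enterocyte genes 19 were higher in percc1-/- bottom stomach at P10, 17 lower at P15 and 12 lower at P20. Of all tested genes 48.0%, 49.7% and 53.5% were. The part of intestinal tissue in other bottom stomach values was not tested. An exact 0 was not read as absence, since genes used by every cell, such as the respiratory chain subunit Cox6c, were listed at 0 in 1 library (Cox6c in wild-type bottom intestine at P10).

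The targeted locus was read first as a check of the labels. No record carried the symbol Percc1 in any of the 12 libraries. Records without a symbol lay on chromosome 17 between positions 25299054 and 25321505 (mm9) in the 3 wild-type bottom stomach libraries, with 13.9, 10.4 and 10.5 FPKM at P10, P15 and P20. None lay there in the 3 percc1-/- bottom stomach libraries or in any of the 6 intestine libraries. This window was chosen after its values were seen, and it does not overlap the interval of the deletion stated in the labels, chromosome 17 from 25175032 to 25176543. Over that stated interval there was 1 record without a symbol in the percc1-/- bottom stomach library at P20, with 1.84 FPKM, and 1 in the wild-type bottom intestine library at P10, with 1.28 FPKM. The labels give these positions on mm9, the build named for the tables, and on it the first of these records goes against its label. Whether the stated positions are correct was not tested. The interval thus does not separate the genotypes, and libraries are named here by their labels.

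Hormone genes were lower in percc1-/-. Of 15 hormone genes listed, 14 were in the tables and 13 passed the filter of a mean of at least 1 FPKM. The deposited FPKM of the 14 genes, summed without rescaling, was in percc1-/- 32.4%, 49.3% and 30.2% of wild type in bottom stomach at P10, P15 and P20. It was 27.0% in bottom intestine at P10, 29.2% in top intestine at P15 and 20.3% in bottom intestine at P20. Rescaling divides the P15 bottom stomach libraries by 1.31 (percc1-/-) and 1.03 (wild type), which lowers the 49.3%. In tissue RNA fewer cells of a type and less RNA per cell cannot be told apart.

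The 4 of these genes with the smallest p-values in the 6 pairs or in one organ are shown with the 250 bases before their transcription start, from RefSeq (GRCm38.p6, read on the strand of the gene). Ghrl lies on the minus strand at chr6:113719912-113720161, the most upstream of 4 starts listed, Gip on the plus strand at chr11:96024295-96024544, Gcg on the minus strand at chr2:62483654-62483903 and Sst on the minus strand at chr16:23890845-23891094. Capitals mark 3 motifs searched on both strands. They are the E-box CAGATG, the GATA motif AGATAA and the cyclic AMP response element TGACGTCA.
Ghrl: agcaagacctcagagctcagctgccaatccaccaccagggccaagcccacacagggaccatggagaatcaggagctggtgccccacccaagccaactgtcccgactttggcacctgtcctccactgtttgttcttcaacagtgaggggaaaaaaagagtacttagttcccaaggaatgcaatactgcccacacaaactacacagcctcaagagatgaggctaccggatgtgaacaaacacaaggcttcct
Gip: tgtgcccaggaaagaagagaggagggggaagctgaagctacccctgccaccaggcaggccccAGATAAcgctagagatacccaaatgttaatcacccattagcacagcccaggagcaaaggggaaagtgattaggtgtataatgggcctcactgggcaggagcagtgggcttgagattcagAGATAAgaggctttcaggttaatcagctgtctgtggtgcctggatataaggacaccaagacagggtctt
Gcg: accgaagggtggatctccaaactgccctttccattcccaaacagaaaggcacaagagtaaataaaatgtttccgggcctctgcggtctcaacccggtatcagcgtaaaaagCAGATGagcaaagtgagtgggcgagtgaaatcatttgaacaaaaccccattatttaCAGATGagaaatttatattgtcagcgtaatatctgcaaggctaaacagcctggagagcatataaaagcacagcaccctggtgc
Sst: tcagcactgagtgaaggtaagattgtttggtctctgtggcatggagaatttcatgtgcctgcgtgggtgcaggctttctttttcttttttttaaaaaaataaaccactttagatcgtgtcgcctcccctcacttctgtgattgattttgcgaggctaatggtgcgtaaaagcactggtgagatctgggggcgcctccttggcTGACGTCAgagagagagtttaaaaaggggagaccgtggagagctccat
Gip held the GATA motif at 188 and 69 bases before its start, Gcg the E-box at 139 and 83 bases, and Sst the cyclic AMP response element at 48 bases. Among 27025 such windows, 1 per gene, 14.54% held the E-box, 10.23% the GATA motif and 1.599% the cyclic AMP response element. None of the 3 was shared by the 4 windows.

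Ghrl, which encodes the appetite-stimulating hormone ghrelin and has its main source in the stomach, fell in bottom stomach. Its wild-type level was 47.9, 53.4 and 67.9 FPKM at P10, P15 and P20. In percc1-/- it was 1.71 and 1.14 FPKM at P10 and P15 and was listed at 0 at P20. The groups did not overlap, as for 3.93% of all tested genes with every percc1-/- stomach value below wild type. The log2 change over the 3 pairs was -4.98 (SE 0.42; limma on log2(rescaled FPKM + 1), Benjamini-Hochberg adjusted p = 0.0218). All fold changes below are on this scale, which makes changes of weakly expressed genes look smaller. Genes under an adjusted p of 0.05 were called. Genes called lower in bottom stomach were 0.00752% of the 13293 tested. In intestine wild-type Ghrl was 7.39 FPKM (bottom, P10), 7.11 (top, P15) and 8.43 (bottom, P20), and percc1-/- Ghrl was listed at 0, then 2.21 and 1.92 FPKM. Records without a symbol over Ghrl reached 11.4 FPKM in percc1-/- and 9.3 in wild type. With these added, the stomach change was -2.83 (adjusted p = 0.305, limma), with 5.54 to 10.6 FPKM in percc1-/- and 53.5 to 67.9 in wild type. The intestinal change was then -1.01 (adjusted p = 0.76, limma), with 3.24 to 13.6 FPKM in percc1-/- and 14.4 to 16.4 in wild type. The stomach call, on records with the symbol, held without the P10 bottom intestine pair (adjusted p = 0.0174, limma). It ended without any other pair, with changes of -5.40 to -4.46 and adjusted p from 0.062 to 0.193 (limma). It also ended with a pseudocount of 0.1 (adjusted p = 0.841, limma). Tests of a single organ were fitted to all 12 libraries with a shared spread. In the bottom stomach libraries alone the Ghrl change was -5.04 (adjusted p = 0.187, limma). Mboat4, which encodes the enzyme that acylates ghrelin, was below the filter. It had 0.258, 0.252 and 0.264 FPKM in percc1-/- bottom stomach and 2.3, 1.4 and 1.52 in wild type.

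Gip, the incretin of intestinal K cells, fell in intestine. Wild-type libraries held 18.9 FPKM in bottom intestine at P10, 30.3 in top intestine at P15 and 19.0 in bottom intestine at P20. The percc1-/- library of bottom intestine at P10 held 0.0872 FPKM, and Gip was listed at 0 in the other two. The groups did not overlap, as for 3.08% of all tested genes with every intestine value below wild type. The log2 change was -4.63 (SE 0.24, lower in 3 of 3 pairs, limma adjusted p = 0.000574), beside 0.0226% of all tested genes called lower in intestine and 0.0301% called in either direction. In bottom stomach Gip was 0.418, 0.286 and 0.107 FPKM in percc1-/- and 1.36, 2.68 and 0.955 in wild type, a log2 change of -1.01 (limma adjusted p = 1.0). The change differed between the organs by 3.62 (SE 0.34, limma adjusted p = 0.0315), 1 of 3 such calls, or 0.0226% of genes. Gip stayed called in intestine when any single pair was left out, with adjusted p from 0.00269 to 0.00823 (limma). In the intestine libraries alone its adjusted p was 0.04 (limma). The difference between organs was not called without any one of the 6 pairs.

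Gcg, the precursor of glucagon and of the L cell hormone GLP-1, was over 2-fold lower in 6 of 6 pairs, as was Ghrl before its unnamed records were added. Genes lower by this rule were 0.015% of all tested. Wild-type bottom stomach held 7.81, 3.89 and 5.61 FPKM and percc1-/- 1.49, then 0 and 0.127 FPKM. Wild-type intestine held 15.3, 3.26 and 14.4 FPKM (bottom P10, top P15, bottom P20) and percc1-/- 0.156 and 0.197 at P10 and P15, with 0 listed at P20. Every percc1-/- value lay below every wild-type value, as for 0.0752% of all tested genes. The log2 change over 6 pairs was -2.74 (SE 0.33) and missed the threshold (limma adjusted p = 0.0883). Sst, the inhibitory peptide of D cells, fell in intestine, where percc1-/- held 4.06, 2.51 and 3.5 FPKM and wild type 9.35, 11.2 and 12.4 (log2 change -1.54, SE 0.16, limma adjusted p = 0.0438). In bottom stomach Sst was 14.1, 26.8 and 22.1 FPKM in percc1-/- and 35.6, 35.5 and 44.9 in wild type. Neither organ's groups overlapped, as for 3.93% of all tested genes lower in this way in bottom stomach and 3.08% in intestine. The intestinal call held without the P10 bottom intestine pair (adjusted p = 0.0345, limma) and ended without any other pair, with adjusted p from 0.0887 to 0.217 (limma). In the intestine libraries alone the adjusted p of Sst was 0.727 (limma).

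The other hormones varied by organ and region, and none was called. Nts (neurotensin) and Pyy (peptide YY), both products of the lower gut, differed in bottom intestine. Nts was 0.672 and 0.115 FPKM in percc1-/- and 15.2 and 17.7 in wild type at P10 and P20. Pyy was 0.227 and 0.136 FPKM in percc1-/- and 12.9 and 12.7 in wild type at the same stages, but 2.74 and 2.43 FPKM in top intestine at P15. Cck (cholecystokinin, which releases bile and pancreatic enzymes) was 2.06, 0.732 and 0.986 FPKM in percc1-/- intestine and 6.97, 9.41 and 5.77 in wild type. Gast (gastrin, from G cells of the lower stomach) was 7.45, 20.8 and 12.6 FPKM in percc1-/- bottom stomach and 24.1, 23.6 and 27.2 in wild type, with the smallest gap in the P15 pair. Gast was lower in 6 of 6 pairs, as were 2.16% of all tested genes (log2 change -0.60, limma adjusted p = 0.775; exact sign-flip p = 0.0312, the smallest that 6 pairs allow).

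Not every endocrine product was lower. Sct (secretin) was 8.89, 6.23 and 8.42 FPKM in percc1-/- intestine and 11.4, 3.25 and 14.8 in wild type, so that the groups overlapped. Tac1 (substance P precursor, also a neuronal gene) was higher in 5 of 6 pairs, with a log2 change of 0.33 (limma adjusted p = 0.838). Iapp (amylin) was lower in 5 of 6 pairs and higher in the P10 bottom stomach pair, 6.53 against 1.98 FPKM, where the insulin gene Ins2 was 23.5 and 1.43 FPKM beside the pancreas markers given above. The part of pancreatic tissue in the Iapp value was not tested. Nmu (neuromedin U) was lower in 5 of 6 pairs, with a log2 change of -0.30 (limma adjusted p = 0.847).

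**Figure D1:**
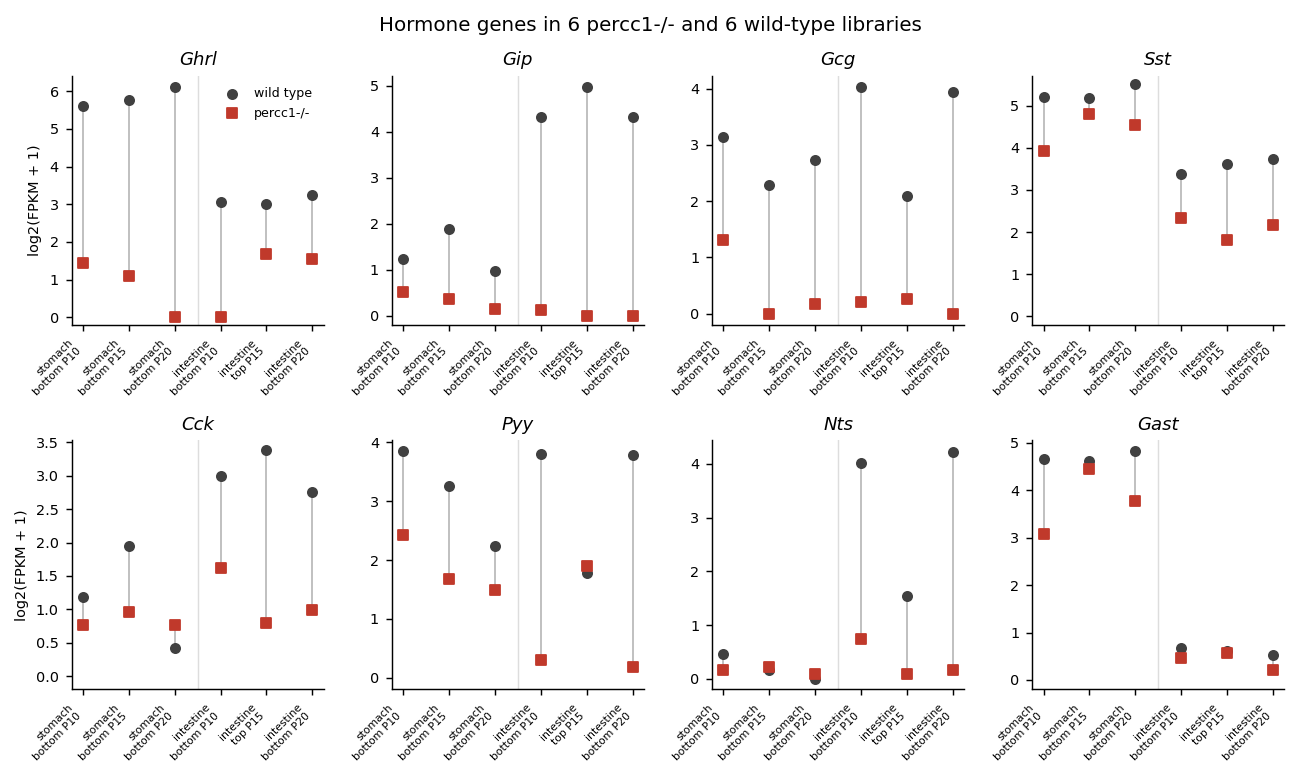
FPKM on a log2(FPKM + 1) axis of 8 hormone genes in each of the 12 libraries, with 1 wild-type point (grey circle) and 1 percc1-/- point (red square) joined for each pair, 3 stomach pairs left of the line and 3 intestine pairs right of it. In records with their symbol Ghrl and Gcg are over 2-fold lower in all 6 pairs. Gip separates most in intestine, and Pyy overlaps in top intestine at P15.

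Tph1, the rate-limiting enzyme of serotonin synthesis in enterochromaffin cells, went the other way. It rose in bottom stomach, with 8.07, 13.5 and 9.77 FPKM in percc1-/- and 1.9, 2.21 and 2.49 in wild type (log2 change 1.75, SE 0.17, limma adjusted p = 0.0387). Genes called higher in bottom stomach were 0.015% of all tested, and 2.88% had every percc1-/- value there above wild type. Intestine held 9.56, 14.2 and 9.06 FPKM in percc1-/- and 4.54, 8.57 and 3.15 in wild type, higher in 3 of 3 pairs. Over 6 pairs its log2 change of 1.34 missed the threshold (limma adjusted p = 0.12), and with unnamed records over the gene added it was 1.65 (adjusted p = 0.00834). In bottom stomach the call was lost with those records added (adjusted p = 0.0579, limma). It held without the P20 bottom intestine pair (adjusted p = 0.0361, limma) and ended without any other pair (adjusted p from 0.0877 to 0.394, limma), with a pseudocount of 0.1 (0.0943) and without a filter (0.102). In the bottom stomach libraries alone the adjusted p of Tph1 was 0.187 (limma). Other endocrine genes stayed close. Among 18 tested granule and amine genes the median log2 change was 0.041, and among 10 tested endocrine transcription factors it was 0.016, beside -0.003 over all tested genes. Chgb, a granule protein, was higher in 6 of 6 pairs, as were 1.65% of all tested genes (log2 change 0.56, limma adjusted p = 0.558), with 23.5, 37.2 and 24.3 FPKM in percc1-/- bottom stomach and 14.6, 13.8 and 17.2 in wild type. Neurog3, the factor that starts the endocrine lineage, was higher in 3 pairs and lower in 3, with 0.495 to 1.44 FPKM in percc1-/- and 0.302 to 1.68 in wild type.

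Of the 10 tested endocrine factors 3 were lower at an unadjusted p under 0.05, beside 3.29% of all tested genes, and none was called. Isl1 was 0.134, 0.312 and 0.0268 FPKM in percc1-/- intestine and 0.919, 1.03 and 0.54 in wild type, while its bottom stomach levels of 13.3 to 18.9 and 16.7 to 21.7 FPKM overlapped. Rfx6 was 0.979, 0.726 and 0.333 FPKM in percc1-/- intestine and 2.18, 2.57 and 0.849 in wild type.

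Across the 6 pairs 1 gene was called, Gm3448, beside 775 genes (5.83% of tested) at an unadjusted p under 0.05. Gm3448, a predicted gene on chromosome 17 from 15101153 to 15147148 (mm9), rose to 2.25, 3.26 and 4.68 FPKM in percc1-/- bottom stomach from 0.326, 0.236 and 0.377 in wild type. In intestine it was 6.63, 5.94 and 4.94 FPKM in percc1-/- and 1.02, 0.667 and 0.202 in wild type. The groups did not overlap, as for 0.0451% of all tested genes with every percc1-/- value above wild type. The log2 change was 1.87 (SE 0.16, limma adjusted p = 0.0199; higher calls were 0.00752% of genes). It lost the call when any pair but the P10 stomach pair was left out, with changes of 1.78 to 1.92 and adjusted p from 0.0781 to 0.188 (limma). It may share reads with near-identical copies, which these tables do not resolve.

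A pair of further genes on chromosome 17 were among the smallest p-values. Glo1, glyoxalase I, which detoxifies methylglyoxal, was 28.1, 41.1 and 29.7 FPKM in percc1-/- bottom stomach against 20.2, 20.4 and 21.8, and 27.7, 22.8 and 26 in percc1-/- intestine against 14.8, 16.9 and 20.7. Every percc1-/- value exceeded every wild-type value, as for 0.0451% of all tested genes (log2 change 0.53, SE 0.07, limma adjusted p = 0.0883). Tmem181a, a membrane protein with near-identical neighbours, was 17 to 30.6 FPKM in percc1-/- and 11.4 to 14.9 in wild type (log2 change 0.70, limma adjusted p = 0.188). On chromosome 17, 6.79% of 633 tested genes kept one direction in 6 of 6 pairs, against 3.81% of all tested genes and 3.66% of 12660 genes elsewhere. Whether the mixed background contributed cannot be told apart from the deletion in this design.

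Mcpt1, a protease of mucosal mast cells, was 0.725, 0.361 and 0.809 FPKM in percc1-/- bottom stomach and 3.0, 2.37 and 2.19 in wild type. Its intestinal values were 1.32, 0.419 and 0.592 FPKM against 6.37, 4.95 and 2.46. Every percc1-/- value of Mcpt1 lay below every wild-type value, as for 0.0752% of all tested genes (log2 change -1.40, SE 0.19, limma adjusted p = 0.12). Over the 8 tested mast cell genes the median log2 change was -0.083. Retnla, a secreted product of alternatively activated macrophages, was lower in 6 of 6 pairs (log2 change -1.24, limma adjusted p = 0.277), with 0.113, 0.31 and 1.74 FPKM in percc1-/- bottom stomach and 2.67, 4.54 and 4.92 in wild type. Casq2, a calcium-binding protein of muscle, was 2.62, 2.45 and 2.48 FPKM in percc1-/- bottom stomach and 4.28, 5.35 and 6.18 in wild type, and was lower in 6 of 6 pairs (log2 change -0.72, limma adjusted p = 0.277). Skeletal muscle markers differed in the P15 stomach pair, and their part in Casq2 was not tested. Saa3, an acute phase apolipoprotein, was higher in 6 of 6 pairs (log2 change 2.07, limma adjusted p = 0.277). It was 3.32, 9.95 and 1.04 FPKM in percc1-/- bottom stomach with 0 listed in wild type at P10 and P15 and 0.584 at P20, and 13.3, 2.63 and 14.2 in intestine against 0.343, 0.304 and 3.08.

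**Figure D2:**
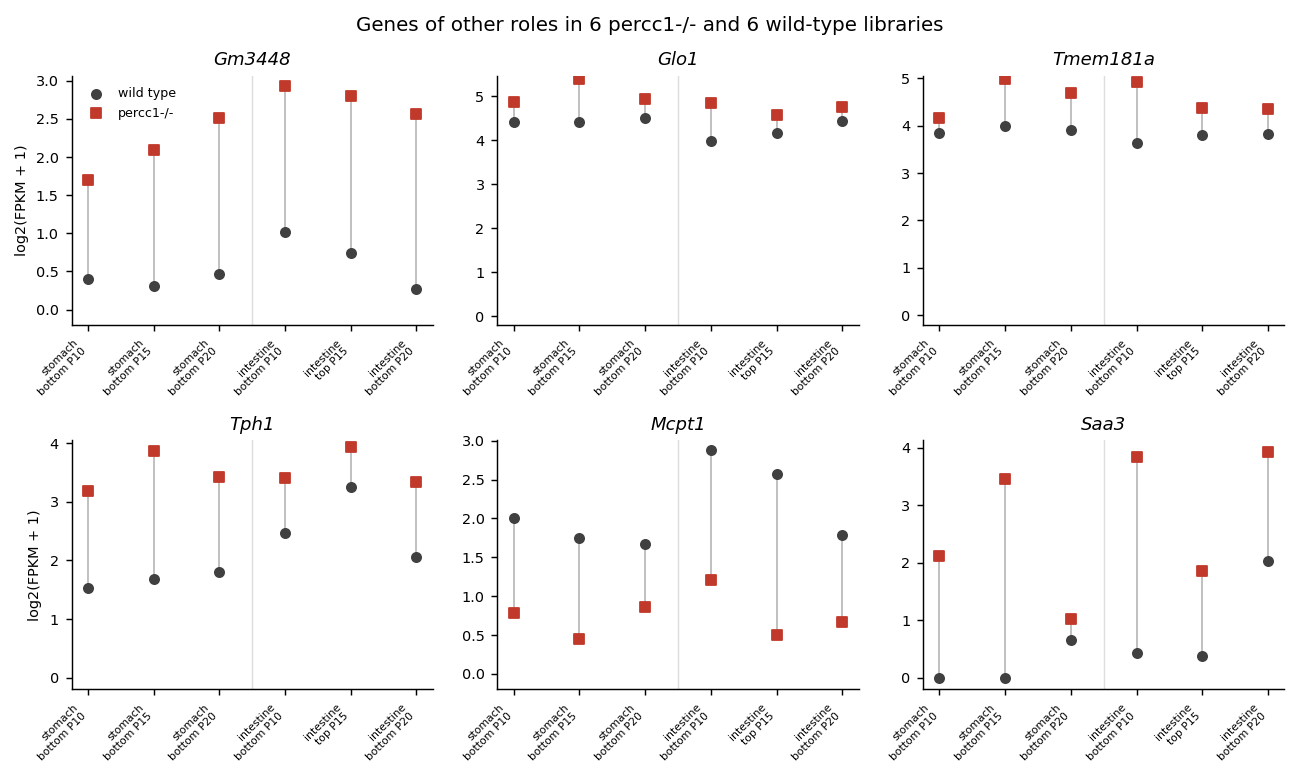
FPKM on a log2(FPKM + 1) axis of 6 genes of other roles in each of the 12 libraries, with 1 wild-type point (grey circle) and 1 percc1-/- point (red square) joined for each pair. Gm3448, Glo1, Tmem181a, Tph1 and Saa3 are higher and Mcpt1 is lower in percc1-/- in all 6 pairs, and among them Gm3448 passed the adjusted threshold over the 6 pairs.

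The 2 other calls were of genes listed at 0 in every library of a genotype in the called organ. Values of 0 also entered the Ghrl and Gip calls given above. Unc50, a gene of the Golgi, was listed at 0 in the 3 percc1-/- intestine libraries and at 9.0, 10.7 and 15.9 FPKM in wild type (limma adjusted p = 0.000373), with 12.1 to 18.2 FPKM in all bottom stomach libraries. Records without a symbol over Unc50 reached 11.2 FPKM in percc1-/-. With these added its intestinal adjusted p was 0.527 (limma), with 0 to 11.2 FPKM in percc1-/-. The transcript 1700110K17Rik was 11.4, 6.97 and 8.31 FPKM in percc1-/- bottom stomach and listed at 0 in the other 9 libraries. With its unnamed records added it was 33.2 to 57.1 FPKM in percc1-/- bottom stomach and 32.9 to 46.6 in wild type, and the log2 change was 0.101 (adjusted p = 1, limma).

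Genes of the change from milk to solid food differed in bottom intestine, and the direction turned over between P10 and P20. With 1 library per genotype and stage these are values without a test. Of 10 tested genes of weaned enterocytes, 8 were higher in percc1-/- at P10 and 9 were lower at P20, beside 48.6% of all tested genes higher at P10 and 48.3% lower at P20. Of 16 tested genes of suckling enterocytes, 14 were lower at P10 and 14 higher at P20, beside 51.1% and 51.2% of all tested genes. Over 2-fold differences were 5 of 10 weaned genes higher at P10 and 4 lower at P20, beside 2.05% and 1.89% of all tested genes, and 7 of 16 suckling genes higher at P20, beside 2.47%. In wild type the weaned genes had a median log2 change of 2.0 from P10 to P20 and the suckling genes of -0.39. In percc1-/- the medians were 0.78 and 0.37.

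Among genes of weaned enterocytes, Sis (sucrase-isomaltase) went from 2.27 to 57.4 FPKM in wild-type bottom intestine and from 16.6 to 44.5 in percc1-/-. Arg2 (mitochondrial arginase) was listed at 0 at P10 and stood at 17 FPKM at P20 in wild type, and was 5.65 and 7.44 in percc1-/-. Treh (trehalase) was likewise listed at 0 and then 16.8 FPKM in wild type, and 2.93 and 7.69 in percc1-/-. All of these were higher in percc1-/- at P10 and lower at P20. Ada (adenosine deaminase) went from 2.86 to 25.1 FPKM in wild type and from 10.9 to 11.9 in percc1-/-. Fut2, which fucosylates the epithelial surface, moved in opposite directions, from 2.59 to 12.3 FPKM in wild type and from 14.9 to 1.58 in percc1-/-. Enpp7, the alkaline sphingomyelinase, was an exception and was lower at both stages, 5.09 against 23.8 and 12.1 against 47.3 FPKM.

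Among genes of suckling enterocytes, Fcgrt, the neonatal receptor for milk immunoglobulin, was 42.9 FPKM in percc1-/- and 40.2 in wild type at P10, and 46.9 against 19.6 at P20. Ass1, which makes argininosuccinate for arginine synthesis, was 16.0 against 20.5 FPKM and then 17.7 against 5.92. Fbp1, the gluconeogenic fructose bisphosphatase, was 19.0 against 24.7 FPKM and then 26.3 against 8.52. Each was clearly above wild type at P20 and not at P10. Prdm1, a transcription factor of the suckling epithelium, was 9.98 against 15.8 FPKM and then 8.77 against 3.26. Nox4, an NADPH oxidase, crossed as well, 1.3 against 12.7 FPKM at P10 and 5.62 against 1.68 at P20.

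Wide differences at P20 were also seen outside both lists. Folr1, a folate receptor, was 48.8 FPKM in percc1-/- and 0.783 in wild type at P20, after 28.3 and 60.2 at P10. Mfi2, melanotransferrin, was 41.7 FPKM in percc1-/- and 1.24 in wild type at P20, after 29.7 and 43.0 at P10. In top intestine at P15 the same genes were 28.9 and 36.4 FPKM in percc1-/- and 22.5 and 15.3 in wild type. In wild-type bottom intestine 455 genes (3.42%) were over 2-fold higher at P20 than at P10 and 660 (4.97%) lower, and in percc1-/- 283 (2.13%) and 294 (2.21%). Of these, 54 were higher and 39 lower in both genotypes, and 63 moved over 2-fold in opposite directions. Bottom stomach gave 164 higher (1.23%) and 339 lower (2.55%) in wild type and 141 (1.06%) and 340 (2.56%) in percc1-/-, with 14 in opposite directions.

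Top intestine at P15 looked like bottom intestine at P10 for the weaned genes, all 10 of which were higher in percc1-/- beside 51.4% of all tested genes. Sis was 17.4 FPKM against 7.8, Ada 39.4 against 4.87 and Treh 10.1 against 5.87. Of the 16 suckling genes 12 were higher there too. Of 6 ileal bile acid genes, which mark position along the intestine, 4 were higher in percc1-/- bottom intestine at P10 and 2 at P20. Of all tested genes 48.6% and 51.2% were, and with 6 genes these counts are near that share. In wild type 3 of the 6 were over 2-fold higher and 2 over 2-fold lower at P20 than at P10, beside 3.42% and 4.97% of all tested genes. Fabp6, the ileal bile acid binding protein, was 45.1 FPKM in percc1-/- and 11.6 in wild type at P10, and 41.3 and 50.8 at P20. Slc10a2, the ileal bile acid transporter, was 8.32 and 0.8 FPKM at P10 and 16.1 and 23.5 at P20. Fgf15, the ileal signal to the liver, went the other way, with 20 and 25.8 FPKM at P10 and 16.5 and 8.69 at P20. Their part in the differences was not tested.

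**Figure D3:**
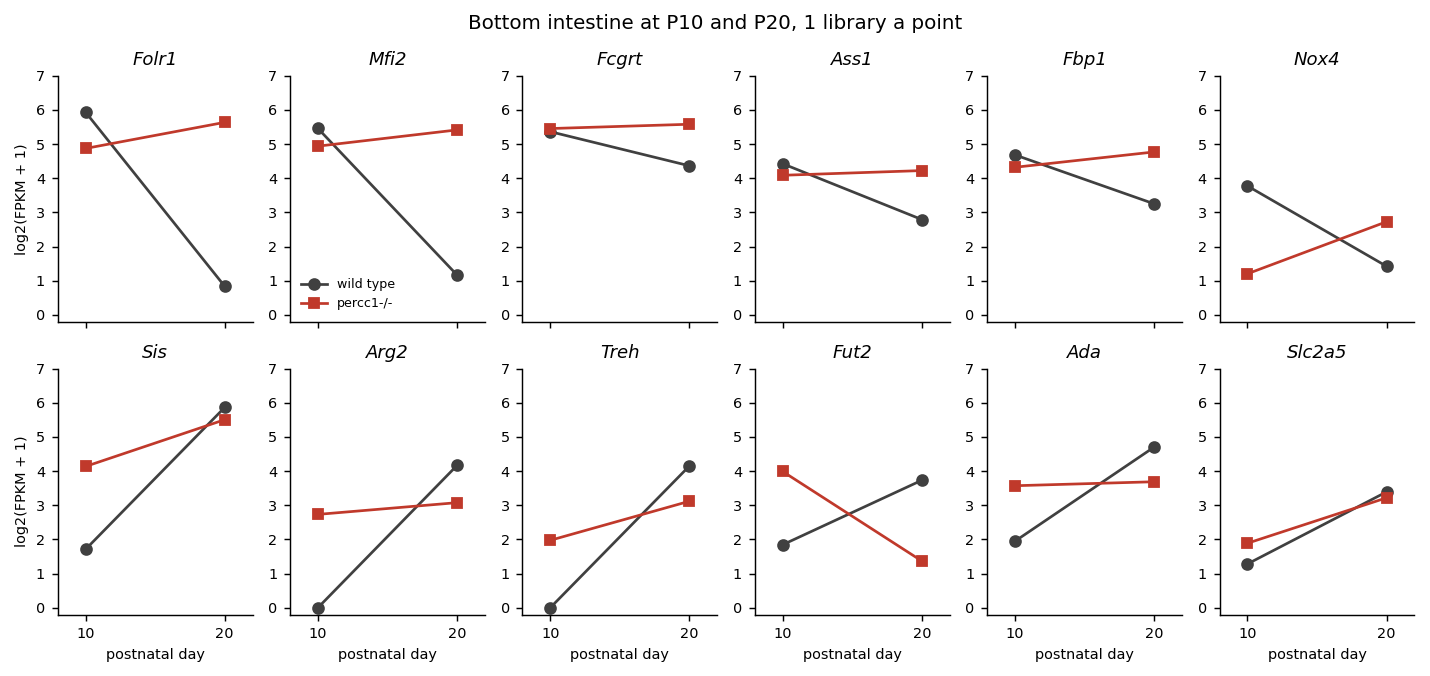
FPKM on a log2(FPKM + 1) axis of 12 genes in bottom intestine at P10 and P20, 1 library a point, with wild type as grey circles and percc1-/- as red squares. In percc1-/- Folr1 and Mfi2, which are in neither list, stay high at P20, where wild type holds 0.783 and 1.24 FPKM. The rest of the top row is from the suckling set and the bottom row from the weaned set. Lines cross for genes of both sets, but not for Fcgrt.

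Crypt genes turned over in the same way in bottom intestine. Of 22 tested cell cycle genes, 21 were higher in percc1-/- at P10 and 22 were lower at P20, where 48.6% and 48.3% of all tested genes were, with median log2 ratios of 0.371 and -0.482. Mki67, a marker of dividing cells, was 21.9 against 15 FPKM at P10 and 15.3 against 22.4 at P20. Of 10 tested Paneth cell genes 8 were higher at P10 and 10 lower at P20, beside the same shares. Mmp7, the protease that activates mouse defensins, was 21.1 against 5.81 FPKM at P10, 7.6 against 3.22 in top intestine at P15 and 10.2 against 29.0 at P20. The antibacterial lectins Reg3b and Reg3g followed: Reg3b was 96.4 against 20.2 FPKM at P10, 35.2 against 6.59 in top intestine and 52.1 against 117.0 at P20. Reg3g was 81.7 against 8.94 FPKM, 23.4 against 5.01 and 49.4 against 115.0. Stem cell genes did not, with median log2 ratios of 0.042 at P10 and 0.008 at P20 over 12 genes. The reversal was not limited to crypt and enterocyte genes. Of 12 tested smooth muscle genes 10 were higher at P10 and 10 lower at P20, beside the same shares. Of 7 heat shock genes 7 were higher and then 6 lower, and of 10 goblet cell genes 9 higher and then 8 lower. In bottom stomach at P10 the Reg list was also higher, with a median log2 ratio of 2.075 over 7 genes, in the pair where pancreas markers differed; Reg2, a pancreatic member, was 29.0 against 0.159 FPKM there.

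**Figure D4:**
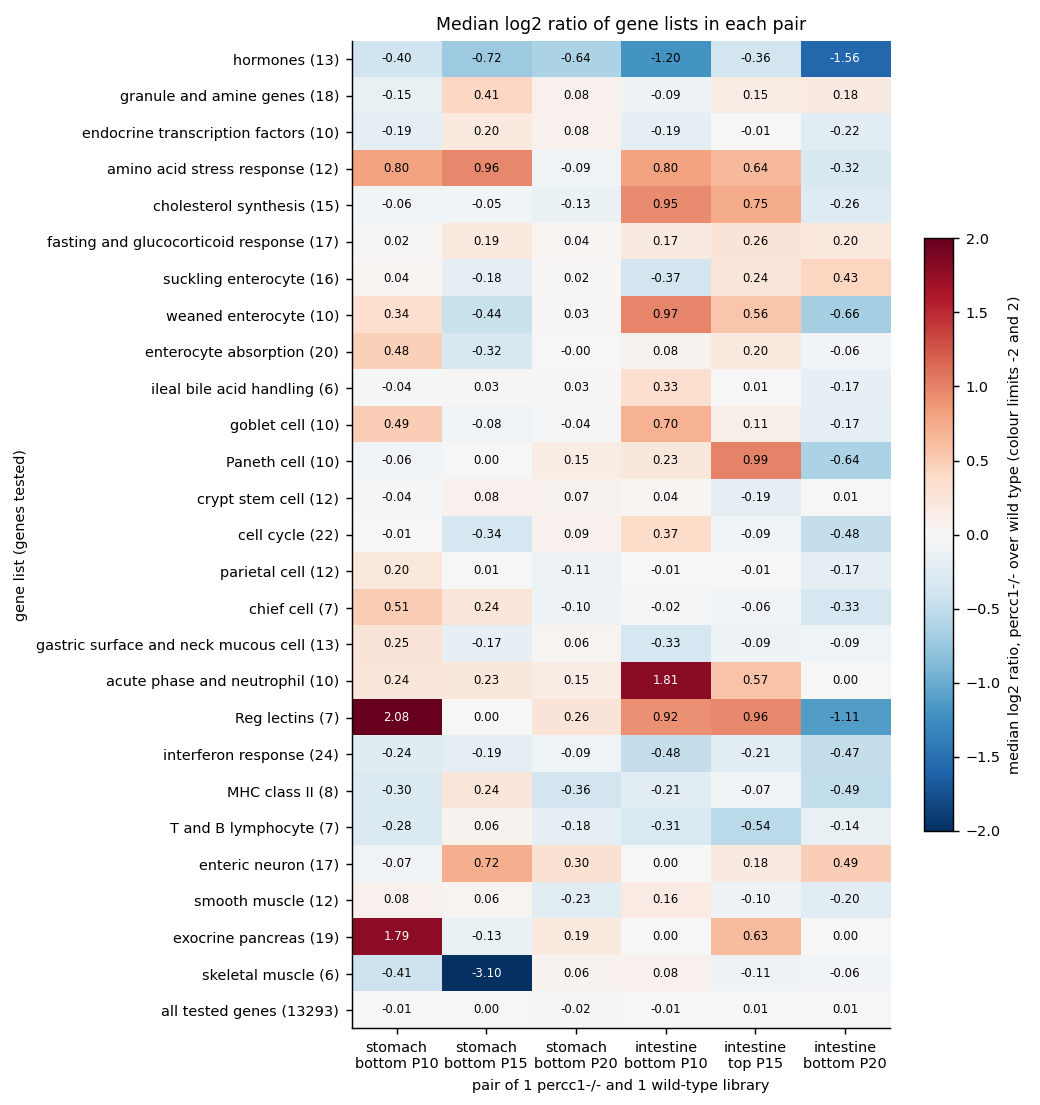
Median log2 ratio of percc1-/- over wild type for 26 gene lists and for all tested genes (rows, with the number of genes tested) in each of the 6 pairs (columns). Blue is lower and red higher in percc1-/-. In bottom intestine the weaned, Paneth, Reg and cell cycle lists are positive at P10 and negative at P20. The goblet cell and smooth muscle lists, among others, are too. The amino acid stress list is positive at P10 and P15 and not at P20. Exocrine pancreas and skeletal muscle stand out in 1 bottom stomach pair each.

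The amino acid stress response, driven by Atf4 when amino acids are short, was higher in percc1-/- at P10 and P15 and not at P20. It had median log2 ratios of 0.803 and 0.96 in bottom stomach at P10 and P15, 0.799 in bottom intestine at P10 and 0.642 in top intestine at P15. At P20 the medians were -0.086 in bottom stomach and -0.316 in bottom intestine. Of 12 tested genes, 4 were higher at an unadjusted p under 0.05 over the 6 pairs, beside 2.54% of all tested genes, and none was called. Chac1, a glutathione-degrading enzyme and target of Atf4, was 13.4 against 1.93, 8.68 against 0.977 and 0.618 against 1.48 FPKM in bottom stomach. In intestine it was 9.01 against 0.406 at P10, 1.51 against 0.206 at P15 and 0.431 against 1.22 at P20. It was higher in the 4 pairs of P10 and P15 and lower in both of P20. Asns (asparagine synthetase) did the same, with 43.0 against 23.4, 47.2 against 25.1 and 25.9 against 32.1 FPKM in bottom stomach, and 22.1 against 6.99, 10.3 against 5.03 and 8.21 against 14.3 in intestine.

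The slope of the genotype effect with age was tested across all genes with 2 pairs at each stage. No gene was called, and 883 (6.64%) had an unadjusted p under 0.05. Chac1 was among the 3 smallest p-values, with a slope of -3.12 log2 units per 10 days (SE 0.44, unadjusted p = 0.000213, limma adjusted p = 0.716). The others were Mri1, an enzyme of methionine salvage (slope -2.30, SE 0.27, limma adjusted p = 0.716), and Car3, a carbonic anhydrase abundant in fat and muscle (slope 3.07, SE 0.44, limma adjusted p = 0.716). Mri1 was 14.6 against 4.09, 8.59 against 6.15 and 3.97 against 8.79 FPKM in bottom stomach. Without rescaling 10 genes passed, Chac1, Mri1 and Car3 among them.

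Cholesterol synthesis genes differed in intestine. All 15 tested genes were higher in percc1-/- bottom intestine at P10 and in top intestine at P15, where 48.6% and 51.4% of all tested genes were, with medians of 0.947 and 0.749. At P20 13 of 15 were lower, beside 48.3% of all tested genes, with a median of -0.258. In bottom stomach the medians lay between -0.128 and -0.053. There 9, 11 and 13 of 15 were lower at P10, P15 and P20, beside 51.7%, 49.7% and 53.5% of all tested genes. Sqle (squalene epoxidase) was 22.8 against 8.22 FPKM at P10, 15.3 against 8.61 at P15 and 16.0 against 19.8 at P20. None of the 15 was called.

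**Figure D5:**
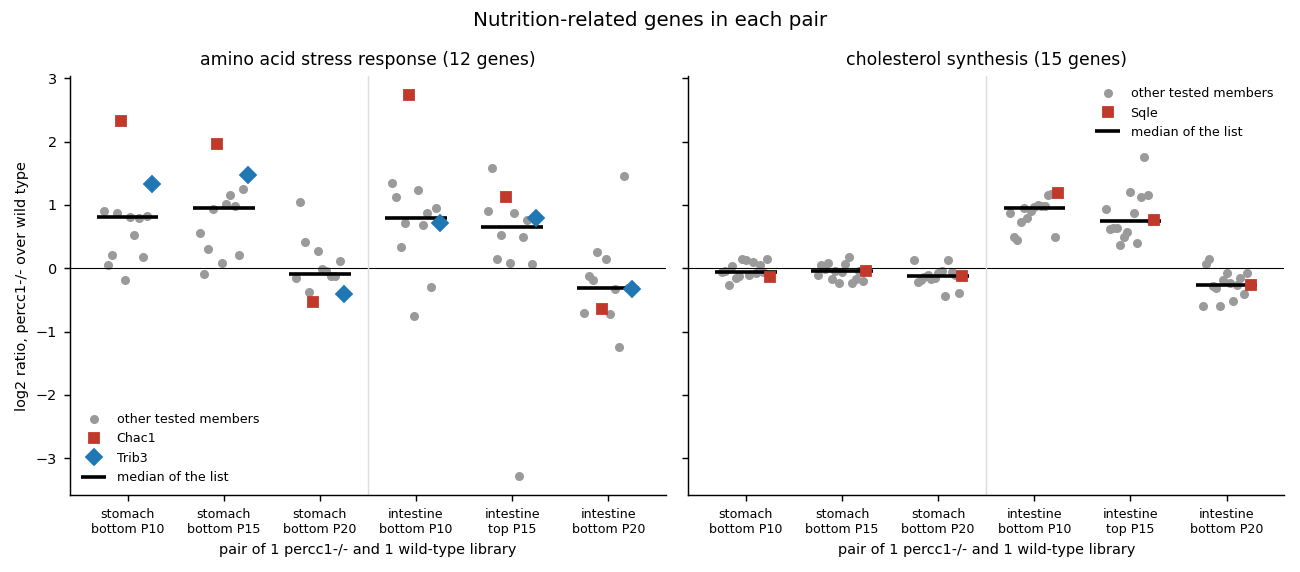
Log2 ratio of percc1-/- over wild type for every tested member of the amino acid stress list (left, 12 genes) and the cholesterol synthesis list (right, 15 genes) in each of the 6 pairs, with the black bar as the median of the list. Medians of the stress list are 0.642 to 0.96 in the 4 pairs of P10 and P15 and below 0 in the pairs of P20, and the sterol list is higher in intestine at P10 and P15.

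Genes of fasting had a median log2 change of 0.179 over 17 tested. Pdk4, which restrains glucose oxidation, was 8.35 against 7.31, 13.4 against 9.69 and 7.24 against 7.69 FPKM in bottom stomach. In intestine it was 11.5 against 4.21 at P10, 15.7 against 12.8 at P15 and 15 against 2.88 at P20. After rescaling it was higher in 6 of 6 pairs, with a log2 change of 0.64 that was not called (limma adjusted p = 0.847). Fkbp5, a target of the glucocorticoid receptor, was instead higher at P10 and P15 in intestine, 9.54 against 2.38 and 10.3 against 2.58 FPKM, and lower at P20, 5.81 against 7.75.

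Of 24 tested interferon response genes 22 had a negative log2 change over the 6 pairs, beside 6761 of all 13293 tested genes. Of the 24, 7 were lower at an unadjusted p under 0.05, beside 3.29% of all tested genes, with none called. The median was -0.246, against -0.003 over all tested genes. Usp18, a negative regulator of interferon signalling, was lower in 6 of 6 pairs (log2 change -0.59, SE 0.12, limma adjusted p = 0.514), with 2.65, 2.27 and 2.98 FPKM in percc1-/- intestine and 4.06, 5.43 and 4.8 in wild type. Of 10 acute phase and neutrophil genes tested, all 10 were higher in bottom intestine at P10 (median log2 ratio 1.807), 5 at P20 and 6 in top intestine, beside 48.6%, 51.2% and 51.4% of all tested genes. The last 2 counts are near that share. Over the 6 pairs 4 of the 10 were higher at an unadjusted p under 0.05, beside 2.54% of all tested genes, and none was called.

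Of 17 tested enteric neuron genes 16 had a positive change, beside 6532 of all 13293 tested genes. Their median log2 change was 0.323, against -0.003 over all tested genes. Of the 17 neuron genes 8 were higher at an unadjusted p under 0.05, where 2.54% of all tested genes were, and none was called. All 17 were higher in the P15 bottom stomach pair, which holds the library that stood apart, beside 49.9% of all tested genes. In bottom stomach 4 were higher at P10 (48.0% of all) and 13 at P20 (46.1% of all). Nos1, the neuronal nitric oxide synthase, had the smallest p of the list (log2 change 0.57, unadjusted p = 0.00566, limma). Genes of differentiated gastric cells had median log2 changes in bottom stomach of 0.018 for 12 parietal cell genes, 0.071 for 13 mucous cell genes and 0.217 for 7 chief cell genes, with none called. All 7 chief cell genes were higher at P10, 6 at P15 and 3 at P20, beside 48.0%, 49.9% and 46.1% of all tested genes. Atp4a, a subunit of the proton pump, was 62.3, 82.8 and 75.1 FPKM in percc1-/- bottom stomach and 54.3, 68.0 and 87.4 in wild type, and the groups overlapped.

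Whether the effect of the deletion differs from that of the first days was tested by adding the 6 pairs of stomach and small intestine at P1 and P5. The young stomach libraries are labelled stomach with no part named, and all older ones are bottom stomach. The mix of top and bottom intestine also differs between the ages. Age therefore cannot be told apart from the part sampled. No gene was called as different among 13069 tested, with 1391 (10.6%) at an unadjusted p under 0.05. Of 12 hormones tested 3 differed between the ages at an unadjusted p under 0.05, Sst, Nmu and Ghrl. The mean log2 ratio of Ghrl over the 6 young pairs was -4.30 ± 0.99 (SD, n = 6 pairs), that of Gcg -2.49 ± 0.99 and that of Gip -2.94 ± 1.99. Sst was further down in the young, at -2.60 ± 0.76, and the difference of 1.29 (SE 0.30) had an unadjusted p of 0.00108 and an adjusted p of 0.287 (limma). The smallest p belonged to Pfkfb3, an activator of glycolysis that was lower in 6 of 6 older pairs, with a log2 change of -0.64 (difference -1.19, SE 0.16, limma adjusted p = 0.111), and had a young mean of 0.52. In the older pairs it was 3.22, 5.65 and 6.01 FPKM in percc1-/- bottom stomach and 5.84, 5.84 and 12.6 in wild type, and 5.26, 4.96 and 12.6 in intestine against 6.17, 10 and 23.1.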

How the data were processed

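Libraries were stranded total RNA depleted of ribosomal RNA, per the labels' protocols. Each library has 1 deposited Cufflinks gene table of FPKM values; TopHat2 2.0.13, SAMtools 0.1.18, Cufflinks 2.2.1 and mm9 are named in the submitters' processing notes, which as used here name no annotation. No counts are given. Depth was estimated only roughly, from deposited confidence bounds of unnamed records, and no counting interval was made. Deposited values spanned a narrow range at the top, for a cause not tested: the highest symbol reached 66.4 to 245 FPKM and the hundredth 32.5 to 58.4.

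Records of one symbol were summed; genes inside merged records were missing in that library. Libraries were rescaled by median ratios (factors 0.884 to 1.31). Genes averaging 1 FPKM or more were tested with limma 3.58.1 in R 4.3.3 on log2(value + 1), trended and robust, with the pair as a block, Benjamini-Hochberg adjustment, two-sided; an exact sign-flip test over the 6 pairs stands beside single genes. Tests of a single organ were fitted to all 12 libraries, with a spread shared by both organs. Alternatives changed the pseudocount, filter, rescaling, variance model, block and libraries. The block comes from region and stage in the labels; deviations of the 2 libraries of a pair correlated at -0.0573 to 0.436. The fit was tested on simulated data.

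Named genes are the hormones, the 10 smallest p-values of the 6 pairs, the 2 leading members of lists, calls of single organs and the largest differences of single pairs; not all of these are printed, and other members of the lists are named as examples. Members, gene lists and rules were chosen with earlier results of these data known.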

Additional observations from a re-analysis of the deposited data

Results flagged for a closer look

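Of 60 sets of 6 pair ratios examined for a pair far from the others (chance marks about 1 in 20), 3 had one. Npw, a neuropeptide gene, had a log2 ratio of 1.05 in the bottom stomach P15 pair and 0.00 to 0.32 in the others. The skeletal muscle list had a median of -3.1 in the same pair, which holds the library that stood apart, and -0.41 to 0.08 in the others. The acute phase and neutrophil list had a median of 1.81 in bottom intestine at P10 and 0.00 to 0.57 in the others.

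The genotype effect differed between bottom stomach and intestine for 3 genes, by limma's test of the difference itself. Gip differed by 3.62 (limma adjusted p = 0.0315), Unc50 by 3.77 (limma adjusted p = 0.00527) and 1700110K17Rik by 3.17 (limma adjusted p = 0.0315). With unnamed records over the refitted genes added, the limma adjusted p was 0.999 for Unc50 and 1700110K17Rik and 0.0954 for Gip. No such record lay over Gip, so its adjusted p moved only through the changed values of other genes.

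Records without a symbol near the targeted locus, which entered no test, held 13.9 FPKM in wild-type bottom stomach at P10, 10.4 at P15 and 10.5 at P20, and none in percc1-/-.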

How the results depend on the processing

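Calls were few and moved with the settings, and the causes were not tested. The single call over 6 pairs became 0 without a filter, 0 at a mean of at least 5 FPKM, 5 without rescaling (Gcg, Gm3448, Mcpt1, Sst, Tph1), 7 with no replicate block in place of the pair block (genotype and organ only: Gcg, Ghrl, Glo1, Gm3448, Mcpt1, Sst, Tmem181a) and 0 without both pairs that differed in markers of another organ, and was 0 to 1 when leaving out 1 pair. In bottom stomach the 3 calls became 0 with a pseudocount of 0.1, 1 without a filter, 8 without rescaling, 0 in its own libraries alone, 0 without genes listed at 0 (added after seeing the data), and 0 to 2 leaving out 1 pair. In intestine the 4 calls became 2 without a filter, 11 without rescaling, 2 in its own libraries alone, 0 without genes listed at 0, and 2 to 9 leaving out 1 pair. The 3 calls between organs became 1 with a pseudocount of 0.1, 1 without a filter, 1 at a mean of at least 5 FPKM, 0 without genes listed at 0, and 0 to 3 leaving out 1 pair. The comparison with P1 and P5 gave 0 to 1 calls leaving out 1 pair and 1 without pairs that differed in markers of another organ (Trim12a), and the age trend 10 without rescaling.

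None of the 22 genes refitted under the alternatives (the hormones, the 10 smallest p-values of the 6 pairs, Unc50 and 1700110K17Rik) changed sign over the 6 pairs. No record had a failed status in the 12 libraries of P10 to P20, so reading failed records as 0 was not run.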
